A study of Homo sapiens with 6 samples.

Results

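The genes described here are the replication-dependent histone genes, the multicopy genes that supply histones H1, H2A, H2B, H3 and H4 for packaging newly made DNA. They were taken as the protein-coding genes of GENCODE release 44 whose symbols begin with H2AC, H2BC, H3C or H4C, together with H1-1 to H1-6, and the rule used no measured value. It gave 70 genes, of which 6 encode H1, 17 encode H2A, 19 encode H2B, 13 encode H3 and 15 encode H4. An identifier was present in the gene tables for 66 of them, out of 58302 gene identifiers in all. H2AC18, H2AC19, H3C2 and H3C3 had none and have no value here.

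Bulk RNA-seq was performed on A375, a human melanoma cell line, in 3 libraries from cells carrying an empty vector and 3 from cells stably overexpressing HMGB2 (HMGB2 OE). HMGB2 is a chromatin protein that bends DNA, and the comparison asks how the transcriptome of melanoma cells changes when there is more of it. Both lines were made by lentiviral transduction and drug selection (blasticidin or puromycin), each library came from its own pellet of cells, and messenger RNA was enriched on oligo(dT) beads. The reporting form of the study calls the replicates of each condition technical, so the p-values measure the spread between these libraries and not between independently made lines.

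The libraries held between 45925053 and 56755212 reads assigned to genes. HMGB2 itself had 7250, 7729 and 7562 normalized counts (reads divided by a size factor that evens out depth) with the empty vector and 15095, 16848 and 14609 with HMGB2 OE. The groups did not overlap and the log2 fold change was 1.05 ± 0.10 (SE, adjusted p = 4.4e-22 by DESeq2), where SE is the standard error from the fit. Of 8 melanocyte lineage markers, MITF had 1358 to 1709 reads and S100B 3118 to 4123, whereas MLANA, TYR and DCT had at most 11. PMEL had 50 to 68 and S100A1 98 to 184, and 1529 to 2017 and 6110 to 9590 where the strands were counted apart. SOX10 was listed at 0 in the counts used, since its reads overlap a gene on the other strand, and had 28863 to 56464 reads where the strands were counted apart.

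Histone genes of this type are switched on as cells enter S phase, by the coactivator NPAT acting downstream of cyclin E and CDK2. Their messenger RNAs have no introns and usually no poly(A) tail. They end instead in a conserved stem-loop that is bound by the stem-loop binding protein SLBP and cut by a complex containing the U7 small nuclear RNA and LSM11, and the same structure directs their decay when DNA synthesis stops. Because oligo(dT) beads select for tails, a poly(A)-enriched library holds these transcripts only where a polyadenylated form was made or where tail-less RNA came through the selection.

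A search for the stem-loop within 200 bases after the stop codon matched 66 of the 70 genes, at 23 to 68 bases from the stop. Only 7 distinct 16-base stem-loops were found. The sequence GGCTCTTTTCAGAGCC was shared by 40 genes of the H1, H2A, H2B and H3 families, and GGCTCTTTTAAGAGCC by 9. The H4 genes carried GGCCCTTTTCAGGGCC in 10 cases and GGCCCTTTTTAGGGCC in 4, and neither of these 2 was found outside the H4 family. The sites of the genes that the results turn on are shown with the 16-base stem-loop in capitals and 5 flanking bases on each side, all from the hg38 reference.

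H1-2 (chr6:26055744-26055759, minus strand): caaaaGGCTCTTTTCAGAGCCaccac
H2AC6 (chr6:26124669-26124684, plus strand): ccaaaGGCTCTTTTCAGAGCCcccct
H2AC13 (chr6:27808647-27808662, plus strand): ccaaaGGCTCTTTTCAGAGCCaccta
H2AC25 (chr1:228457369-228457384, minus strand): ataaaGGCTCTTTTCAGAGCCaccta
H2BC5 (chr6:26158587-26158602, plus strand): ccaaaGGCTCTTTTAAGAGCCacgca
H2BC12 (chr6:27146366-27146381, minus strand): ccaaaGGCTCTTTTAAGAGCCactta
H4C2 (chr6:26026901-26026916, minus strand): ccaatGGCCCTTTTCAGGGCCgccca
H4C9 (chr6:27139654-27139669, plus strand): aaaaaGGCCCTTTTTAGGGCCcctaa

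In 50 of the 66 genes every annotated transcript ended within 100 bases of the stem-loop. In the other 16 a transcript was annotated past it. In 15 of these, AATAAA, the usual signal for adding a poly(A) tail, occurred between the stem-loop and the farthest annotated end. The whole genomic stretch was searched, introns included, and it ran to 37155 bases in H2BC4. A match therefore need not mark a transcript end. H2AC6, H2AC25 and H2BC5 were of the second kind and the other genes shown were of the first. This split was made after the values had been seen and is used below as a description. H3C6, H2BC10, H4C13 and H2BC12L had no match.

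Of the 66 genes in the tables, 56 had at least 1 read and 10 were at 0 in all 6 libraries. The 10 were H1-6, H2AC1, H2AC7, H2AC15, H2BC1, H3C4, H3C11, H3C14, H4C7 and H4C13. H2AC15 had 1, 6 and 2 reads with the empty vector and 7, 5 and 13 with HMGB2 OE in the columns that count each strand, which the either-strand column set aside, and H3C14 had 2 in empty vector replicate 3. For the other 8, a count of 0 allows up to 3 reads in each library (counting error only). H1-6, H2AC1 and H2BC1 are known for expression in the testis. H3C14 shared 99.2% of its 50-base words with other genes, H3C4 96.5% and H2AC7 83.9%, and only reads placed at 1 position were counted. A mean of at least 10 normalized counts was reached by 43 genes.

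Counts summed over the genes came mostly from a few of them. H2AC25, on chromosome 1 and with a transcript annotated past the stem-loop, held 37.4% of all reads of the 66 genes, and the 3 genes with most reads together held 59.9%. Per kilobase of exon, the highest levels were those of H2AC25 (1216 normalized counts per kilobase), H1-2 (893), H2BC12 (804), H2AC6 (419) and H4C3 (362).

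With HMGB2 OE, 16 of the 49 genes that had an adjusted p were higher (DESeq2, adjusted p under 0.05), a share of 32.7%, against 2.29% of all 18836 genes tested. None was lower by DESeq2 or by edgeR, and none was lower at an unadjusted p under 0.05 by either tool, whereas 2.64% of all genes were called lower. At an unadjusted p under 0.05 by DESeq2, 34 genes were higher. The median log2 fold change of the 43 genes at 10 or more normalized counts was 1.09, against -0.00 for all 16692 genes at that level, and 41 of the 43 values were positive. In 24 of the 43, every HMGB2 OE library was above every empty vector library, against 11.4% of all genes, and in none was every HMGB2 OE library below. In bulk RNA a larger share of cells in S phase and more histone RNA per cell cannot be told apart. Other RNAs without a tail also differed between libraries, as given below. The part of tail-less RNA in these values was not tested.

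The number called depended on the third HMGB2 OE library. Without it, 3 members were called higher, H1-2, H2BC5 and H2BC12, against 0.941% of all genes, and none was called lower by DESeq2, against 1.35% of all genes. At an unadjusted p under 0.05, 7 were higher and 0 lower in that fit. The median log2 fold change of the 43 genes was 0.59 without that library. By edgeR's quasi-likelihood test on all 6 libraries, which tested 35 members, the called genes were also H1-2, H2BC5 and H2BC12, against 1.28% of all genes higher and 1.52% lower. Without empty vector replicate 1 the count was 4, against 0.839% of all genes, and without empty vector replicate 2 it was 7, against 1.09%.

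**Figure D1:**
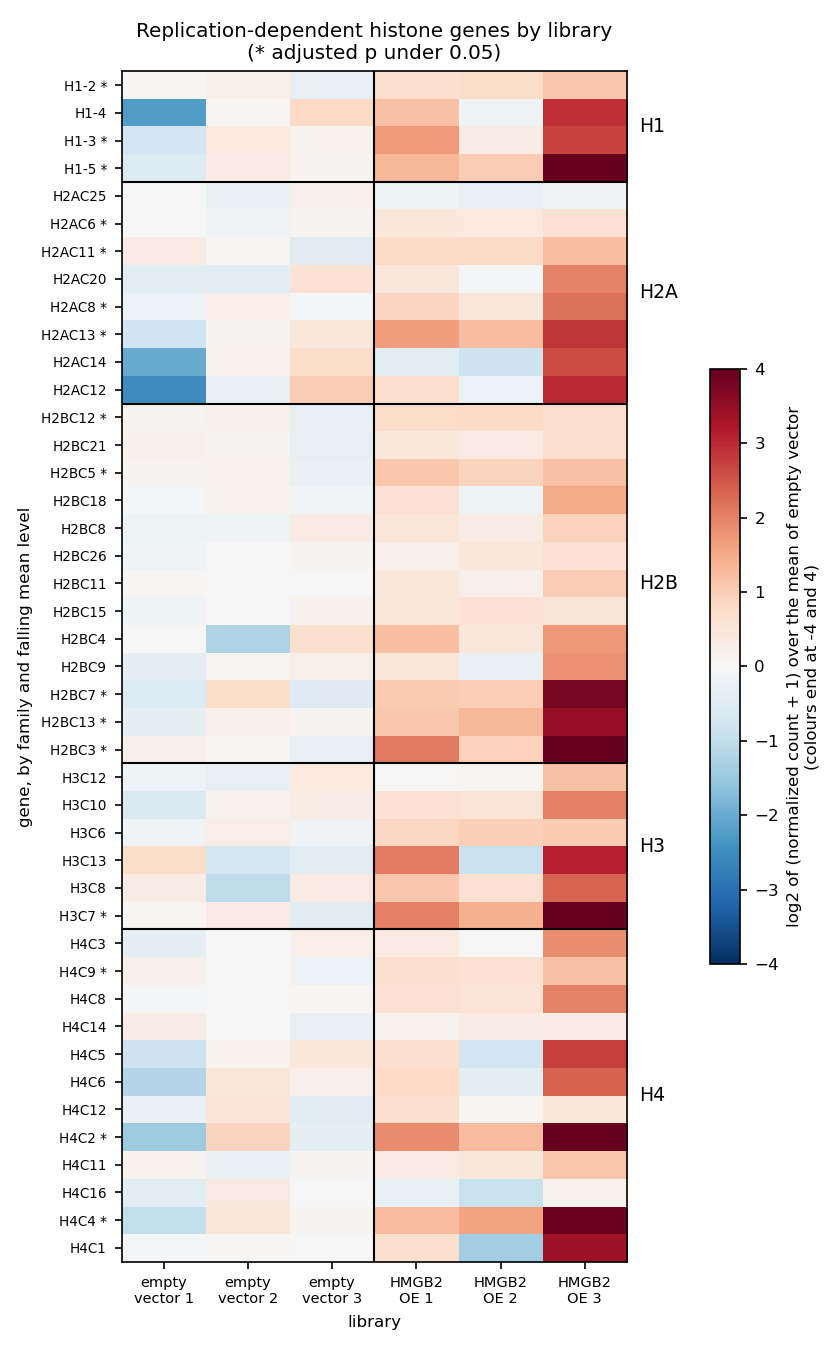
Levels of the 43 histone genes with a mean of at least 10 normalized counts in each of the 6 libraries, as log2 of normalized count plus 1 over the mean of the empty vector libraries, with genes in rows by family and asterisks on the genes called higher. The column of HMGB2 OE replicate 3 holds the strongest colours, with 40 of the 43 genes highest there among the HMGB2 OE libraries, and H2AC25 stays near 0 in every column.

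Among the linker histones, which bind DNA between nucleosomes, H1-2 (chromosome 6, 26055740 to 26056470) was by far the most abundant. It had 482, 552 and 373 normalized counts with the empty vector and 742, 773 and 994 with HMGB2 OE. Every HMGB2 OE library lay above every empty vector library, and the log2 fold change was 0.83 ± 0.18 (SE, adjusted p = 0.00037 by DESeq2). It was called higher in all 14 alternative fits.

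H1-3 had 7.07, 16.8 and 13.95 normalized counts with the empty vector and 43.6, 15.8 and 87.8 with HMGB2 OE. It was the only called gene whose groups overlapped, since HMGB2 OE replicate 2 lay below empty vector replicate 2, and it was called in 7 of 14 alternatives. H1-5 rested on 1, 3 and 2 reads with the empty vector and 7, 5 and 54 with HMGB2 OE, and its log2 fold change of 3.61 ± 1.07 (SE, adjusted p = 0.0207 by DESeq2) was 1.53 without HMGB2 OE replicate 3, where it had no adjusted p. H1-4 varied as much within groups, with 3.03, 18.6 and 32.2 against 41.8, 15.8 and 143 normalized counts, and was not called (log2 fold change 1.90 ± 1.15 SE, adjusted p = 0.483 by DESeq2).

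H2A and H2B form the dimers that flank the central tetramer of the nucleosome. Of the 15 H2A genes in the tables, 10 had an adjusted p and 4 were called higher (H2AC6, H2AC8, H2AC11 and H2AC13), against 2.29% of all genes tested. The median log2 fold change of the 8 H2A genes at 10 or more normalized counts was 1.24. H2AC6 had 589, 529 and 634 normalized counts with the empty vector and 787, 765 and 890 with HMGB2 OE, a difference that was small but larger than the spread within either group (log2 fold change 0.48 ± 0.13 SE, adjusted p = 0.0107 by DESeq2). H2AC13 rose from 7.07, 14.2 and 18.2 to 44.5, 32.5 and 102 normalized counts. Its groups were also separate, with a log2 fold change of 2.18 ± 0.53 (SE, adjusted p = 0.00187 by DESeq2), and it was called in 12 of 14 alternatives, although 63.5% of its 50-base words occur in other genes and only reads placed at 1 position were counted.

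H2AC11 and H2AC8 were higher in all 3 HMGB2 OE libraries than in any empty vector library. For H2AC11 the log2 fold change was 0.93 ± 0.29 (SE, adjusted p = 0.0318 by DESeq2) and by edgeR its adjusted p was 0.0892. For H2AC8 replicates 1 and 2 of HMGB2 OE had 57.2 and 42.4 normalized counts and replicate 3 had 146, against 26.3 to 37.2 with the empty vector. Its log2 fold change was 1.40 ± 0.46 (SE, adjusted p = 0.0456 by DESeq2) over all libraries and 0.69 without replicate 3 of HMGB2 OE (adjusted p = 0.766).

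H2AC25, the most abundant gene, did not follow the others. It had 2391, 2015 and 2789 normalized counts with the empty vector and 2142, 1966 and 2192 with HMGB2 OE. The groups overlapped and the log2 fold change was -0.19 ± 0.14 (SE, adjusted p = 0.62 by DESeq2).

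Of the 19 H2B genes, 16 had an adjusted p and 5 were called higher (H2BC3, H2BC5, H2BC7, H2BC12 and H2BC13), against 2.29% of all genes tested. The median log2 fold change of the 13 H2B genes at 10 or more normalized counts was 0.81. H2BC5 had 120, 123 and 92.3 normalized counts with the empty vector and 237, 208 and 253 with HMGB2 OE. The separation between the groups was wider than either group, with a log2 fold change of 1.05 ± 0.20 (SE, adjusted p = 1.25e-05 by DESeq2), the smallest adjusted p of any member. H2BC12 had 326, 338 and 241 against 502, 509 and 469 normalized counts. It was the member in which replicate 3 of HMGB2 OE was lowest relative to the mean of replicates 1 and 2 (log2 ratio -0.11), and its log2 fold change was 0.71 ± 0.17 (SE, adjusted p = 0.00106 by DESeq2). H2BC5 and H2BC12 were called in all 14 alternatives, and with H1-2 they were the only members of which this held.

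The other 3 called H2B genes were scarce. H2BC3 had 2, 2 and 1 reads with the empty vector and 11, 4 and 37 with HMGB2 OE, H2BC7 had 2, 7 and 2 against 9, 8 and 54, and H2BC13 had 2, 4 and 3 against 8, 9 and 38. Each was separate between the groups, and each had most of its reads in replicate 3. H2BC21, with the second highest count among the H2B genes, had 257, 249 and 184 against 306, 292 and 360 normalized counts, which were separate too but missed the threshold (log2 fold change 0.47 ± 0.19 SE, adjusted p = 0.143 by DESeq2). H2BC26, the H2B neighbour of H2AC25 and the one with a fold change nearest 0 among the H2B genes at 10 or more normalized counts, had 37, 47 and 41 against 52, 58 and 56 reads (log2 fold change 0.44 ± 0.30 SE, adjusted p = 0.579 by DESeq2).

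**Figure D2:**
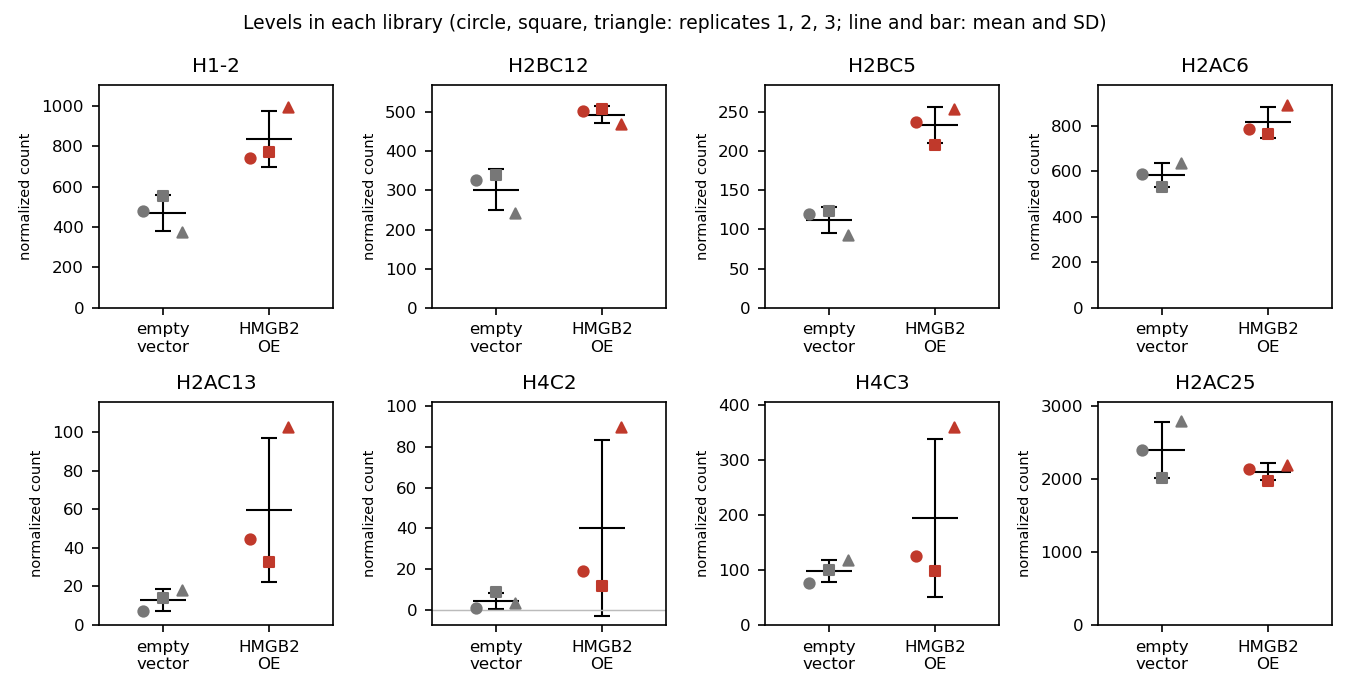
Normalized counts of 8 histone genes in each library, with empty vector in grey and HMGB2 OE in red, symbols for replicates 1 to 3, and the mean and SD of each group. The groups are separate for H1-2, H2BC12, H2BC5, H2AC6, H2AC13 and H4C2, while H4C3 and H2AC25 overlap and the triangle of replicate 3 stands far above the others for H2AC13, H4C2 and H4C3.

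H3 and H4 form the central tetramer. Of the 11 H3 genes in the tables, 7 had an adjusted p and only H3C7 was called higher, against 2.29% of all genes tested. H3C7 had 2, 3 and 1 reads with the empty vector and 12, 7 and 48 with HMGB2 OE (log2 fold change 3.61 ± 0.98 SE, adjusted p = 0.0083 by DESeq2). The 3 H3 genes with most reads were not called. H3C10 had 30.3, 49.6 and 55.8 against 69.0, 67.0 and 185 normalized counts (DESeq2 adjusted p = 0.0649), H3C6 had 19.2, 25.7 and 19.3 against 39.1, 42.4 and 45.0 (DESeq2 adjusted p = 0.122), and H3C12 had 61.6, 54.9 and 90.1 against 69.9, 72.9 and 156 (DESeq2 adjusted p = 0.57). The groups were separate for H3C10 and H3C6 and overlapped for H3C12.

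Of the 15 H4 genes, 12 had an adjusted p and 3 were called higher (H4C2, H4C4 and H4C9), against 2.29% of all genes tested. H4C2 had 1.01, 8.86 and 3.22 normalized counts with the empty vector and 19.1, 11.8 and 90.04 with HMGB2 OE. All HMGB2 OE libraries were above the empty vector libraries, and the log2 fold change was 3.18 ± 0.85 (SE, adjusted p = 0.00712 by DESeq2) over all libraries and 1.80 without HMGB2 OE replicate 3 (adjusted p = 0.624). H4C4 had 1, 5 and 3 against 9, 11 and 53 reads, also highest in replicate 3, with a log2 fold change of 3.16 ± 0.92 (SE, adjusted p = 0.017 by DESeq2).

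H4C9 had 82.8, 73.5 and 61.2 against 114, 108 and 163 normalized counts, with no overlap (log2 fold change 0.82 ± 0.26 SE, adjusted p = 0.0341 by DESeq2). Only 29.9% of the reads placed on H4C9 or its opposite strand entered this count. With both strand columns summed the log2 fold change was 0.65 (DESeq2 adjusted p = 0.00423). This sum added 1411 reads at H4C9 and 1410 at H2BC12, with equal numbers in every library but empty vector replicate 2. The same reads may have been added at both genes, so the summed value need not be separate from that of H2BC12. Whether they were the same reads was not tested. H4C3, the most abundant H4 gene, had 76.8, 100 and 118 against 125, 98.5 and 360 normalized counts, so that replicates 1 and 2 of HMGB2 OE lay at or near the empty vector range and replicate 3 lay far above it (log2 fold change 0.98 ± 0.41 SE, adjusted p = 0.187 by DESeq2). H4C8 had 36.4, 39.0 and 40.8 against 60.0, 57.1 and 156 (DESeq2 adjusted p = 0.0534), and H4C14, with the fold change nearest 0 among the H4 genes at 10 or more normalized counts, had 66.7, 54.0 and 42.9 against 60.9, 68.0 and 68.7 (DESeq2 adjusted p = 0.786).

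**Figure D3:**
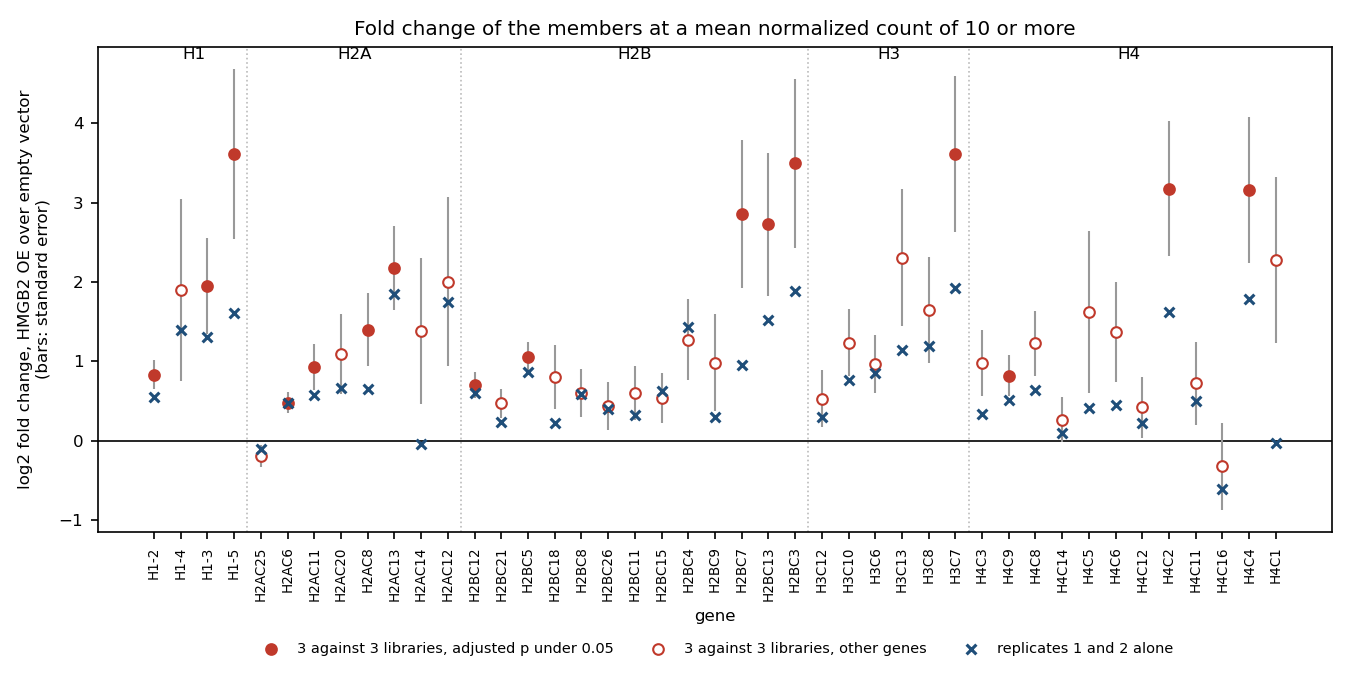
Log2 fold change of HMGB2 OE over empty vector for the 43 histone genes, ordered by family and falling level, with standard errors. Filled circles are the called genes, open circles the others, and crosses the fold change from replicates 1 and 2 alone, which is positive for 39 genes and mostly lies below the circle, with a median of 0.61.

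Replicate 3 of HMGB2 OE was above the mean of HMGB2 OE replicates 1 and 2 in 41 of the 43 genes. Replicates 1 and 2 differed as well, and replicate 2 was the lowest HMGB2 OE library in 33 of the 43. In replicates 1 and 2 alone, 39 of the 43 genes had a positive log2 fold change, with a median of 0.61 against 0.00 for all genes. Of the 27 members with an adjusted p in that fit, 5 were called higher, H1-2, H2AC6, H2AC13, H2BC5 and H2BC12. Of all genes, 8.01% were called higher and 9.44% lower. H1-2 had a log2 fold change of 0.55, H2BC12 of 0.61, H2BC5 of 0.87, H2AC6 of 0.48 and H2AC13 of 1.85 in that fit. No member was called lower by DESeq2, and at an unadjusted p under 0.05, 6 were higher and 0 lower.

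In replicate 3 of HMGB2 OE, 25 of the 43 genes were more than 2 times the mean of HMGB2 OE replicates 1 and 2, whereas 0.815% of all genes at that level were. The log2 ratio ranged from -0.11 for H2BC12 to 3.71 for H4C1, with a median of 1.42, and the middle 90% of all genes lay between -0.58 and 0.46. H4C1 had 4, 5 and 4 reads with the empty vector and 8, 1 and 48 with HMGB2 OE, so that only replicate 3 stood out. For the 4 members H1-2, H2AC6, H2BC5 and H2BC12, replicate 3 was between 0.93 and 1.31 times the mean of the other two HMGB2 OE libraries.

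The genes fell apart by the annotated end of their transcripts. Of the 29 genes at 10 or more normalized counts whose transcripts end at the stem-loop, 22 were more than 2 times higher in replicate 3 than in HMGB2 OE replicates 1 and 2, with a median log2 ratio of 1.78. Of the 13 with a transcript annotated past the stem-loop, 3 were, with a median of 0.27. The log2 of HMGB2 OE replicates 1 and 2 over the empty vector was nearer between them, with medians of 0.69 and 0.38. The 7 genes ending at the stem-loop that were not more than 2 times higher were H1-2, H2BC12, H4C9, H2AC11, H2BC8, H4C11 and H4C12.

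**Figure D4:**
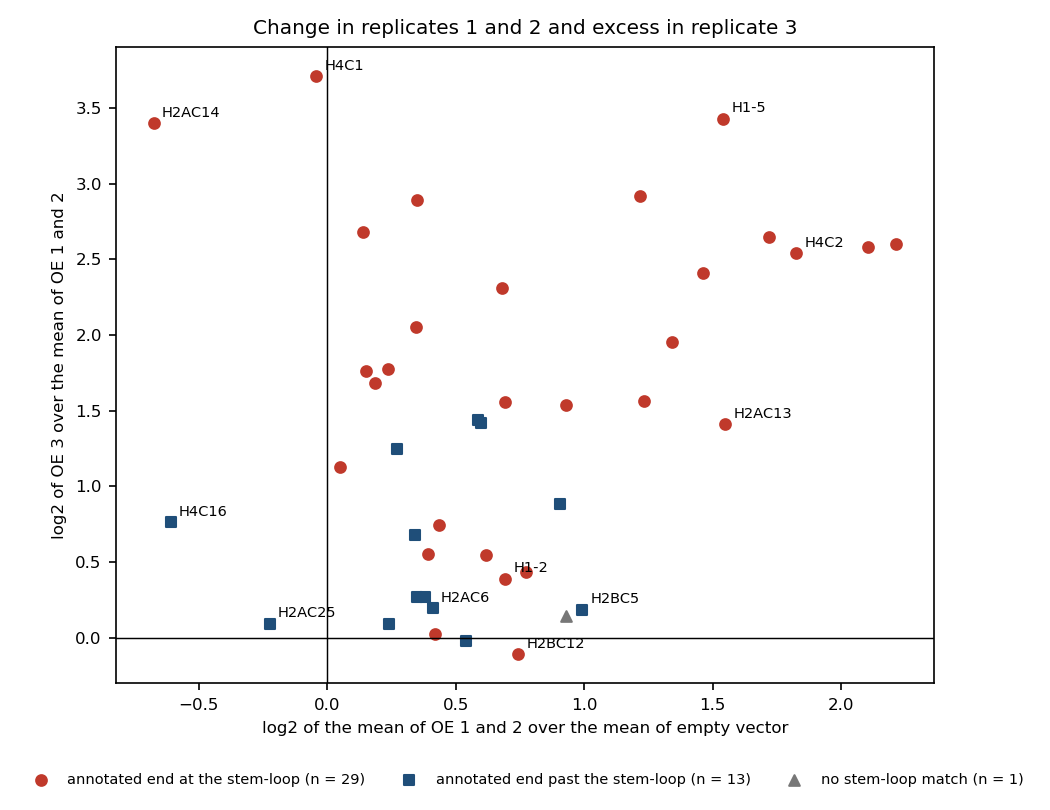
Each point is one of the 43 histone genes, with the log2 ratio of the mean of HMGB2 OE replicates 1 and 2 to the mean of the empty vector on the x axis and the log2 ratio of HMGB2 OE replicate 3 to the mean of HMGB2 OE replicates 1 and 2 on the y axis. Circles, genes ending at the stem-loop, spread up to 3.71 on the y axis, while squares, genes annotated past it, stay below 1.5.

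Summed over all members but H2AC25, the 3 empty vector libraries held 52.8, 56.1 and 51.5 CPM (counts scaled to a library total of 1000000 assigned reads) and the HMGB2 OE libraries 82.9, 76.0 and 130. For the genes ending at the stem-loop the sums were 26.7, 30.7 and 26.2 against 45.97, 41.2 and 83.3, and for the genes annotated past it, without H2AC25, they were 25.7, 24.8 and 24.7 against 35.9, 33.8 and 45.1. Both kinds were higher in every HMGB2 OE library than in any empty vector library, and replicate 3 was the highest in both.

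Other RNAs that lack a poly(A) tail had their highest sum in replicate 3 as well. The 23 small nuclear, small nucleolar and signal recognition particle RNAs at 10 or more normalized counts summed to 40.3, 56.0 and 62.4 CPM with the empty vector and 119, 65.9 and 398 with HMGB2 OE. Of the 23, 15 were highest of all 6 libraries in HMGB2 OE replicate 3. The median log2 level relative to the empty vector mean was -0.46, 0.09 and 0.26 in the empty vector libraries and 0.67, 0.16 and 0.68 with HMGB2 OE, so that by this median replicates 1 and 3 were close, and the sum rested largely on RN7SL2. The log2 ratio of HMGB2 OE replicate 3 to the mean of replicates 1 and 2 had a median of 1.46 over the 23. For the 43 histone genes it was 1.42. RN7SL2, the RNA of the signal recognition particle, had 1617, 2238 and 2556 against 4881, 2607 and 16939 normalized counts. RNU4-1, a U4 spliceosomal RNA, had 7.07, 16.8 and 17.2 against 89.9, 32.5 and 520, and SNORD3A, the U3 nucleolar RNA, 18.2, 65.6 and 80.5 against 369, 145 and 1315. SNORD17 had 174, 207 and 203 against 223, 202 and 263, and RNU4-2 had 3.03, 25.7 and 35.4 against 78.1, 49.2 and 546.

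Of the 23, 4 were called higher by DESeq2 (SNORD3A, RNU4-1, SNORA73B and RNVU1-28) and none lower, against 2.29% and 2.64% of all genes tested. At an unadjusted p under 0.05 by DESeq2, 7 were higher and 0 lower. By edgeR none was called, against 1.28% of all genes higher and 1.52% lower. At an unadjusted p under 0.05 by edgeR, 6 were higher and 0 lower. Multimapped reads made up 2.58%, 3.26% and 3.96% of the empty vector libraries and 4.89%, 3.32% and 10.6% of the HMGB2 OE libraries. The order of the HMGB2 OE libraries was therefore the same in the histone sums, the sums of tail-less RNAs and the multimapped reads, with replicate 3 highest and replicate 2 lowest. In replicate 2, where tail-less RNAs (65.9) and multimapped reads (3.32%) lay near and within the empty vector range, the histone genes ending at the stem-loop summed to 41.2 CPM against at most 30.7 with the empty vector. Most reads of that sum in replicate 2 came from H1-2 (785 reads) and H2BC12 (517 reads). The part of tail-less RNA in the histone values was not tested.

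**Figure D5:**
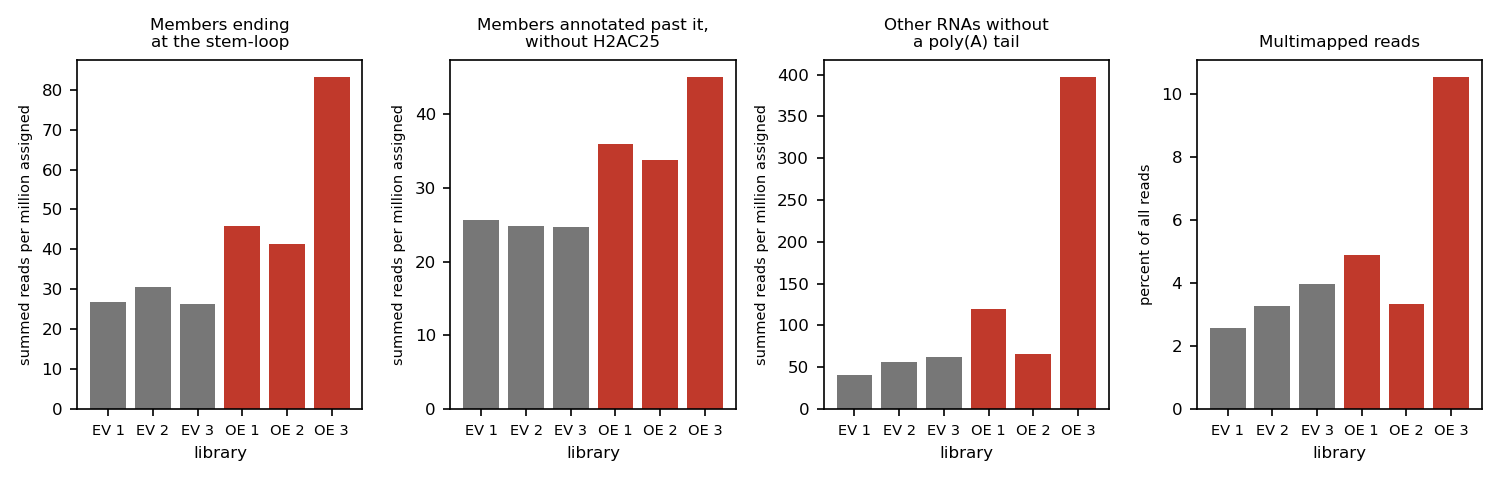
Bars give, for each of the 6 libraries, the summed CPM of histone genes ending at the stem-loop, of those annotated past it without H2AC25, and of 23 other RNAs without a poly(A) tail, and the percent of reads that were multimapped. HMGB2 OE replicate 3 is highest in all 4 panels (83.3, 45.1, 398 and 10.6%), and the first 3 panels show every HMGB2 OE bar above every empty vector bar, by little for replicate 2 in the third (65.9 against 62.4), while the multimapped panel does not.

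By position, 10 of the 32 genes in the cluster at chromosome 6, 25723397 to 26285638, were called, and 6 of the 21 in the cluster at chromosome 6, 27125897 to 27893891. Of these, 24 and 16 had an adjusted p, and 2.29% of all genes tested were called higher. None of the 9 in the cluster at chromosome 1, 149782689 to 149887965, of which 6 had an adjusted p, was called by DESeq2, nor was either gene of the pair H2AC25 and H2BC26. At an unadjusted p under 0.05 by DESeq2, 5 of the 9 were higher and none of the pair was, and by edgeR 2 of the 9 were. The median log2 fold changes of the genes at 10 or more normalized counts were 1.40, 0.88, 0.81 and 0.12. By edgeR, 2 genes of the first cluster and 1 of the second were called. H4C16, the H4 gene that lies alone on chromosome 12, had 12.1, 22.1 and 17.2 against 13.6, 8.86 and 19.1 normalized counts and, with H2AC25, was one of the 2 genes with a negative log2 fold change among the 43 at 10 or more normalized counts (-0.32 ± 0.55 SE, adjusted p = 0.889 by DESeq2).

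The promoters of these genes shared short motifs, but not all families carried the same ones. In the RefSeq promoters, which run from 250 bases before to 50 after the start (GRCh38.p14, 64 of the 70 genes matched), the TATA box TATAAA, the NF-Y site CCAAT and the octamer ATTTGCAT (bound by OCT1) were searched on both strands, and matches may overlap. TATAAA was present in 65.6% of the 64 histone promoters against 11.95% of 27305 promoters of all genes, and CCAAT in 84.4% against 35.7%. CCAAT was in every H1, H2A, H2B and H3 promoter searched, but in only 3 of 13 H4 promoters (23.1%). ATTTGCAT was present in 14 of 18 H2B and 11 of 16 H2A promoters, in 1 of 11 H3 promoters and in no H1 or H4 promoter, against 1.80% of all. The H3 promoter was that of H3C4, listed with the same stretch as the promoter of H2AC7. Promoters of neighbouring H2A and H2B genes can overlap, as for H2AC6 and H2BC4, and a shared octamer then counts for both genes. The promoters of the 3 genes called in every alternative are shown with all matches, on either strand, in capitals.

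H1-2 (chr6:26056421-26056720, minus strand): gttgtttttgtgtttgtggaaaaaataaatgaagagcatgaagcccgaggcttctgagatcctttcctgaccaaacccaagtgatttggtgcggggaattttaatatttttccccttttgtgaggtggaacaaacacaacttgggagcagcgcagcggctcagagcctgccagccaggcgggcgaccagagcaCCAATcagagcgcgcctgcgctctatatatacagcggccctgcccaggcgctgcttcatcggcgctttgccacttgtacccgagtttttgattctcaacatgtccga
H2BC5 (chr6:26157871-26158170, plus strand): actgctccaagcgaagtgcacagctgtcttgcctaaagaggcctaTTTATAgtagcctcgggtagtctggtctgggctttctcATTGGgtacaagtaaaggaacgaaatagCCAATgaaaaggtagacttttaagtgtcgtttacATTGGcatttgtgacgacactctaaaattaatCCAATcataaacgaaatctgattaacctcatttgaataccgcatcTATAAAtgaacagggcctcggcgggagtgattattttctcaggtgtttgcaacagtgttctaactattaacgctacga
H2BC12 (chr6:27146809-27147108, minus strand): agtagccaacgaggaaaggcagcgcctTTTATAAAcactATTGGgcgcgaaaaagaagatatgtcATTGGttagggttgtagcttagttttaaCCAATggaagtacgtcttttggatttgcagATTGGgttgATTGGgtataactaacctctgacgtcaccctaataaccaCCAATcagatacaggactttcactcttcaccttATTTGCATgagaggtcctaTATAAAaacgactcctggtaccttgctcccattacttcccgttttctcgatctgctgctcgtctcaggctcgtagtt

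These 3 promoters share CCAAT but not the other letters. H2BC12 holds all 3 motifs, H2BC5 holds TATAAA and CCAAT without the octamer, and H1-2 holds a single CCAAT.

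Few of the genes that act on histone messenger RNAs passed the test. Among 7 regulators of histone gene transcription none was called by DESeq2 or edgeR, and none was higher or lower at an unadjusted p under 0.05 by either tool. NPAT had 774, 874 and 788 normalized counts with the empty vector and 793, 751 and 783 with HMGB2 OE (log2 fold change -0.07 ± 0.12 SE, adjusted p = 0.89 by DESeq2), and CASP8AP2, which is needed for the NPAT-containing histone locus body, had 425, 461 and 244 against 402, 466 and 299. Both sets of values overlapped, and in both groups CASP8AP2 was lowest in replicate 3.

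Of 16 genes of 3′ end processing that had an adjusted p, none was called by DESeq2 or edgeR, and at an unadjusted p under 0.05 by DESeq2, 2 were higher and 1 lower. SLBP had 3781, 3782 and 4734 against 4173, 4400 and 4779 normalized counts (log2 fold change 0.12 ± 0.13 SE, adjusted p = 0.791 by DESeq2). LSM11 had 1297, 1183 and 1395 against 1086, 1029 and 1053, lower in every HMGB2 OE library but past no threshold (log2 fold change -0.29 ± 0.11 SE, adjusted p = 0.145 by DESeq2). None of 9 genes of histone messenger RNA decay was called by DESeq2 or edgeR, and 1 was higher at an unadjusted p under 0.05. In replicates 1 and 2 alone the counts higher and lower were 0 and 0 for transcription, 3 and 1 for processing, and 1 and 1 for decay. Of all genes in that fit 8.01% were called higher and 9.44% lower.

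Of 13 histone chaperones with an adjusted p, RBBP4, a histone-binding subunit of chromatin assembly factor 1, was higher, with 5392, 6021 and 6410 against 7201, 7370 and 7932 normalized counts (log2 fold change 0.34 ± 0.11 SE, adjusted p = 0.0432 by DESeq2; edgeR adjusted p = 0.11). The other 12 were not called, while 2.29% of all genes tested were called higher by DESeq2. By edgeR none of the list was called, with 2 higher at an unadjusted p under 0.05. In replicates 1 and 2 alone 3 chaperones were called higher and 1 lower, against 8.01% of all genes higher and 9.44% lower. Among 11 histone genes that are polyadenylated or encode variants, H1-10, a linker histone that is expressed throughout the cell cycle, was lower with 10400, 9182 and 8606 against 6252, 7038 and 5807 (log2 fold change -0.56 ± 0.12 SE, adjusted p = 0.000346 by DESeq2). The groups did not overlap, and H1-10 moved opposite to H1-2. Only 53.8% of the reads at H1-10 or its opposite strand entered the count. The other 10 were not called, while 2.64% of all genes tested were called lower by DESeq2. In replicates 1 and 2 alone 2 of the 11 were called higher and 3 lower, against 8.01% and 9.44% of all genes.

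Of the 27 genes of S phase and DNA replication, none was called higher by DESeq2 and 2 were lower, against 2.29% and 2.64% of all genes tested. At an unadjusted p under 0.05 by DESeq2, 1 was higher. By edgeR 0 were called higher and 1 lower, against 1.28% and 1.52% of all genes. In replicates 1 and 2 alone 3 were called higher and 4 lower, against 8.01% of all genes higher and 9.44% lower in that fit. The 3 were PCNA, the sliding clamp (log2 fold change 0.43, adjusted p = 1.88e-09 by DESeq2), RRM2, a subunit of ribonucleotide reductase (0.27, adjusted p = 0.00607), and GINS2, a subunit of the replicative helicase (0.27, adjusted p = 0.0224). The 4 lower were CDT1, E2F1, MCM7 (log2 fold change -0.18) and POLE (-0.22). CDT1, which loads the replicative helicase, had 6153, 6130 and 5152 against 4157, 4157 and 3572 normalized counts (log2 fold change -0.55 ± 0.12 SE, adjusted p = 0.000403 by DESeq2), and E2F1, a transcription factor of S phase entry, had 3125, 2936 and 3320 against 2338, 2465 and 2365 (-0.39 ± 0.10 SE, adjusted p = 0.00456 by DESeq2). Both were lower in every HMGB2 OE library. The median log2 level of the 27 genes relative to the empty vector mean was -0.01, -0.02 and 0.06 in the empty vector libraries and -0.08, 0.05 and 0.07 with HMGB2 OE, whereas that of the 43 histone genes was -0.16, 0.08 and 0.10 against 0.67, 0.44 and 1.86.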

How the data were processed

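The deposited files held raw read counts per Ensembl gene identifier, which the authors made by trimming (Trimmomatic), aligning to GRCh38 and counting with STAR; versions of these tools are not given in the sources used here. Each file had one column counting either strand, used here, and 2 columns counting each strand. The library kit did not mark strand, and the either-strand column sets aside reads that overlap genes on both strands. Only uniquely placed reads were counted, so near-identical histone copies are undercounted. Symbols came from GENCODE 44, which matched 57532 of 58302 identifiers.

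DESeq2 1.42.0 with default settings (R 4.3.3) was fitted to all genes of the 6 libraries, HMGB2 OE over empty vector, with Benjamini-Hochberg adjusted p over all genes tested and a threshold of 0.05. Depth was 45925053 to 56755212 assigned reads; limits for genes at 0 cover counting error only. Alternatives were edgeR 4.0.16 with TMM, DESeq2 scaled by TMM, only genes with 10 counts in 3 libraries, no independent filter, both strand columns summed, a replicate block, a term for the third replicates, replicates 1 and 2 alone, and each library left out. Library medians added 1 to the normalized counts. The fit was tested on simulated data, where false calls were a larger share of all calls than the threshold allows on average. Named were HMGB2, every called member, the 3 with the highest mean count of each family and the one nearest a fold change of 0 among those at 10 or more normalized counts, called genes of the lists with SLBP, NPAT, CASP8AP2 and LSM11, and the 5 tail-less RNAs with the highest mean count. H4C1, H4C16, PCNA, RRM2, GINS2, MCM7, POLE and the tail-less SNORA73B and RNVU1-28 were added after their values were seen. The members and lists were chosen with earlier results of these data known.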

Additional observations from a re-analysis of the deposited data

Results flagged for a closer look

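Reads at 2 neighbouring genes were set aside from the counts used. Over all 6 libraries the columns that count each strand held 1411 more reads at H4C9 and 1410 more at H2BC12 than the either-strand column, and the 2 genes lost the same number of reads in every library but empty vector replicate 2. As normalized counts these reads at H4C9 were 200, 207 and 146 with the empty vector and 320, 294 and 217 with HMGB2 OE, and each HMGB2 OE library lay above each empty vector library. H2BC12 kept 63.2% of its reads and H4C9 kept 29.9%. Whether the reads set aside at the 2 genes were the same was not tested.

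The share of multimapped reads was above the highest empty vector library in HMGB2 OE replicate 1 (4.89%) and replicate 3 (10.6%). The positions of these reads are not in the gene counts, and their part in the histone values was not tested.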

How the results depend on the processing

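The count of 16 members called higher became 3 by edgeR, 10 with no independent filter and 5 in replicates 1 and 2 alone, and ranged from 3 to 19 as each library was left out, with 3 without HMGB2 OE replicate 3 and 19 without HMGB2 OE replicate 2. It was 15 with TMM factors (2.24% of all genes higher in that fit), 12 with the filter on low counts (2.75%), 15 with both strand columns summed (2.09%) and 17 with a term for the third replicates, which called 8.71% of all genes higher. The share of all genes was 1.02% with no independent filter, 1.15% without HMGB2 OE replicate 2 and 6.09% with the replicate block. None was called lower in any of these fits. The median log2 fold change of the members ranged from 0.59 to 1.44 over all alternatives and was 1.23 for the 35 members that share under 50% of their 50-base words, an alternative chosen after seeing the data. HMGB2 ranged from 0.98 to 1.09 and was called in each.

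Over 39 named genes, 397 comparisons with an alternative kept direction and call, 83 lost the call, 24 gained it and 39 had no adjusted p. CASP8AP2 alone changed direction, to -0.030 in replicates 1 and 2 alone, -0.18 without empty vector replicate 3 and -0.10 without HMGB2 OE replicate 2, within a range of -0.18 to 0.22 as each library was left out. Its log2 fold change was within 1 SE of 0, and the cause was not tested.

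Whether libraries with the same replicate number were prepared together is not stated. Deviations from the group means of same-numbered libraries correlated at 0.09, 0.14 and 0.35 over 16692 genes, positive for each number and highest for replicate 3. With the number as a block 12 members were called, none lower, with a median of 0.98. Genes with fewer than 10 normalized counts, 23 of the 66, were left out of the medians.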
